A study of Mus musculus with 16 samples.

Results

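The livers of mice whose diet was switched every 2 weeks were compared with those of mice kept on a continuous high-fat diet, to ask which transcripts both switching regimens moved the same way. The comparison took the 8 libraries of the 2 alternating groups together against the 4 high-fat libraries, 12 of the 16 in the series. It covered the 11271 of 22612 genes that reached 1 TPM (a length-corrected share of a library's transcripts) in at least 4 of those 12. All mice were male C57BL/6, 7 weeks old at purchase, given 1 week to acclimatise and then their diet for 16 weeks, with 6 mice per group, of which 4 libraries each were sequenced. The high-fat group received 58% of its energy as fat throughout. The chow-alternating group moved between that diet and chow with 11% fat, and the ketogenic-alternating group between it and a ketogenic diet with 90.5% fat. A group on chow alone for the 16 weeks, also 4 libraries, is given as background and enters no test. Every liver was collected following a night without food. Neither the last diet of the alternating mice nor a tie of each library to its own animal is stated, so p-values measure the spread between these libraries, which may be technical.

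The fasted liver draws fatty acids from fat tissue, burns them or turns them into ketone bodies, and stores the excess as triglyceride in lipid droplets. On carbohydrate the same cells make fatty acids, which stearoyl-CoA desaturase makes monounsaturated before they are packed away. Which of these programmes runs depends on insulin, glucagon, the nuclear receptor PPAR alpha, the sterol regulatory factor SREBP1 and the cell's clock, and so on what was eaten and when. The regimens share their high-fat periods, and their other periods differ widely in carbohydrate, which chow is rich in and a ketogenic diet nearly lacks.

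Several features of the 12 libraries bear on every result. TPM columns keep no sequencing depth, so the depth is unknown. The 20 most abundant genes held 30.04 to 34.3% of all TPM in the high-fat libraries, 29.8 to 31.5% in the chow-alternating and 27.1 to 29.5% in the ketogenic-alternating ones. Their share was 29.5 ± 1.45% (SD, n = 8) with alternation and 31.99 ± 2.23% (n = 4) without it (exact permutation test, two-sided, p = 0.0444, 0.148 after adjustment over 10 such library comparisons). The log2 fold change of the median gene between alternation and high fat was 0.11, and 75.5% of tested genes lay above 0. Centring each library on its median gene moved that median to -0.02. The high-fat libraries also differed among themselves. Replicate 3 was the highest of the 4 for 5927 genes (52.6%) and the lowest for 678 (6.02%), while replicate 1 was the highest for 1190 (10.6%) and the lowest for 6008 (53.3%). On the first principal component of the 12 libraries replicates 1 to 4 lay at -41.2, -23.5, 23.6 and 6.41. Values without replicate 3, whose removal gave the most calls, are given where a call depends on it. As that library was picked by its result, the p-values without it describe that dependence and do not test a difference.

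Only 1 gene was called between alternation and continuous high fat, at an adjusted p under 0.05 and a fold of at least 2. It was Scd1 (chromosome 19, 44394455 to 44407879, GRCm38), which encodes the stearoyl-CoA desaturase of the liver. Its call made up 0.00887% of the genes tested. Scd1 stood at 716, 1149.6, 907 and 771 TPM in the 4 high-fat libraries. It stood at 1583, 814, 854 and 916 TPM in the chow-alternating libraries. It stood at 66.7, 11.01, 19.7 and 15.8 TPM in the ketogenic-alternating libraries, so that all 4 of these lay far below the rest while the chow-alternating and high-fat values overlapped. The group means were 886 ± 193 TPM on high fat, 1041 ± 363 TPM in the chow-alternating and 28.3 ± 25.8 TPM in the ketogenic-alternating group (SD, n = 4 each). Chow alone gave 1123 to 2867 TPM.

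On the log2(TPM + 1) scale the pooled Scd1 difference was -2.52 (SE 0.35, 95% interval -3.27 to -1.77, limma adjusted p = 0.0463). The chow-alternating group alone differed from high fat by 0.20 (adjusted p = 0.996) and the ketogenic-alternating group alone by -5.24 (adjusted p = 3.16e-05). Between the regimens the difference was -5.44 (SE 0.40, adjusted p = 1.92e-05). The only gene called in the pooled contrast was therefore low in 1 regimen and not in the other. The pooled call was also lost without any one of 9 of the 12 libraries, which were high-fat replicates 1, 2 and 4, chow-alternating replicates 2, 3 and 4, and ketogenic-alternating replicates 2, 3 and 4 (adjusted p 0.0566 to 0.248). The difference between the regimens passed in all 24 alternatives tried.

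**Figure D1:**
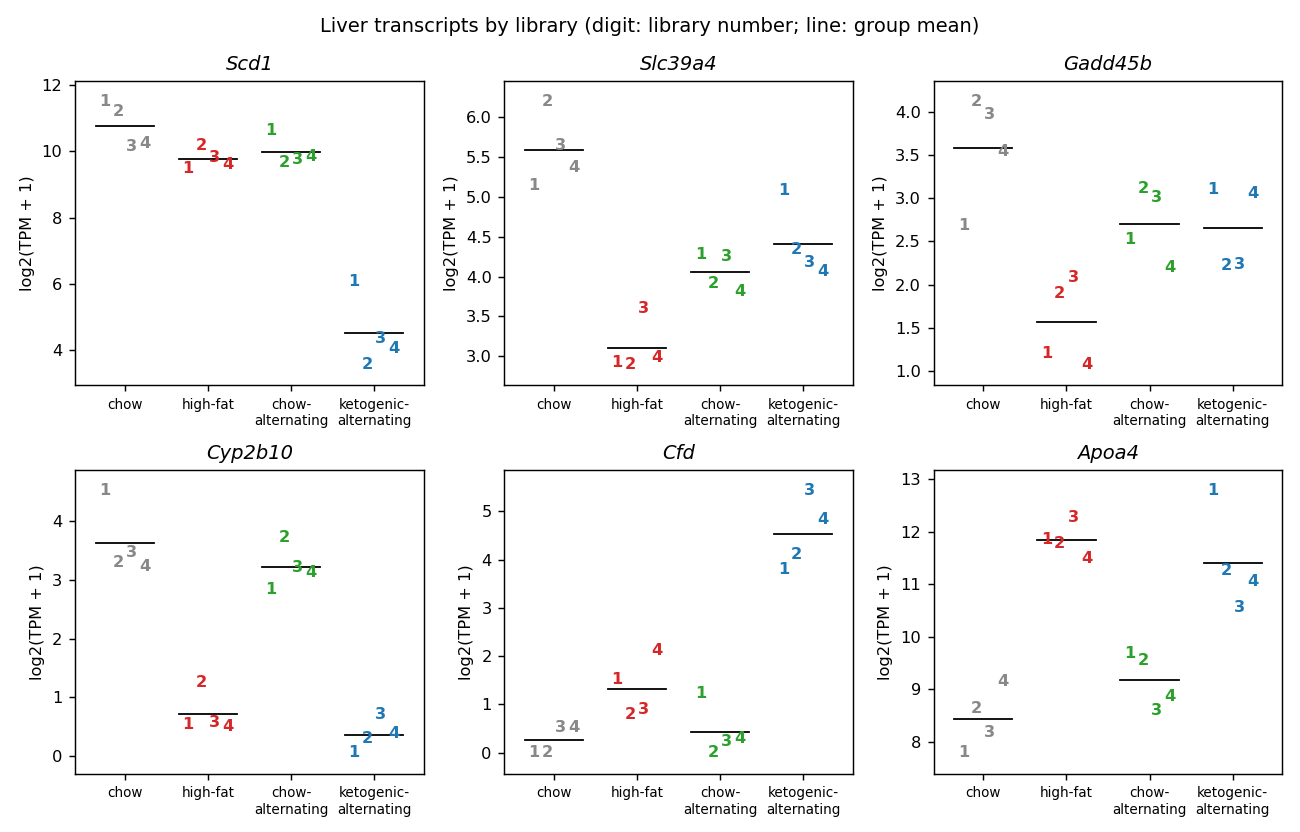
Levels of 6 transcripts in the 16 libraries, on a log2(TPM + 1) axis, with the library number as the mark and a line at each group's mean. Scd1 is low in the 4 ketogenic-alternating libraries only, Slc39a4 and Gadd45b are above the high-fat libraries in all 8 alternating ones, and Cyp2b10, Cfd and Apoa4 separate the 2 regimens from each other.

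No other gene passed. The second smallest adjusted p was 0.235, and limma called 0 genes higher and 1 lower. At an unadjusted p under 0.05 there were 869 genes (7.71%), 759 higher (6.73%) and 110 lower (0.976%) with alternation. That split depends on the scaling: after median centring 227 of 707 such genes were higher, and after quantile normalisation 313 of 702. The precision was enough to bound the mean of the 2 regimens for most genes, on the log2(TPM + 1) scale. The 95% interval had a median half-width of 0.34 on that scale. For 10887 genes (96.6%) it lay wholly within a 2-fold change of TPM + 1 in either direction. For genes near 1 TPM this allows a larger change of the transcript itself, and regimens that move oppositely can cancel in the mean. A log2 fold change of at least 1 in either direction was estimated for 19 genes (0.169%).

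**Figure D2:**
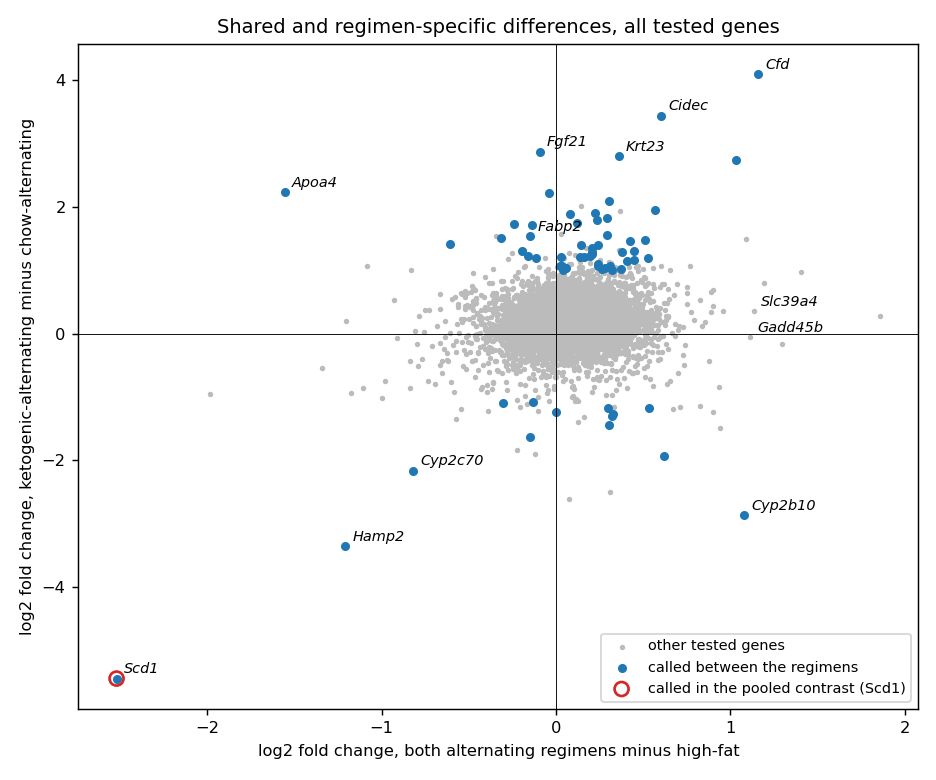
Each point is a tested gene, with the log2 fold change of both alternating regimens minus high fat on the horizontal axis and that of the ketogenic-alternating minus the chow-alternating group on the vertical axis. The 65 genes called between the regimens are blue and the 1 gene called in the pooled contrast, Scd1, is ringed.

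A few genes lay on the same side of high fat in both regimens by like amounts, although none of them passed. They were taken from 30 leading genes, a choice made after their values were seen. Only genes with both regimens on the same side of high fat were eligible. Eligible genes also had a mean of at least 1 TPM over the 12 libraries and an established symbol, and those with the smallest pooled p-values were taken. Genes with opposed regimens, such as Cyp2b10 and Cyp2c70 (limma adjusted p = 0.247 for both), were left out whatever their p-value. Of the 30, 21 were higher and 9 lower, and each kept its direction under every alternative that tested it. As the 30 were picked by sign and p-value from these same libraries, neither that nor the separation that follows is independent support. In 11 of the 30 the 8 alternating libraries lay wholly outside the range of the 4 high-fat ones, as they did in 57 of all tested genes (0.506%), 52 higher and 5 lower. After median centring 47 genes were so separated, 12 higher and 35 lower, and 6 of these were among the 57. Of the 11 leading genes 4 stayed separated (Slc39a4, Nubp2, Wfdc2 and Fbxo36), and 3 others of the 30 became so (Bysl, Pdf and Tram2).

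The gene nearest the threshold after Scd1 was Slc39a4 (chromosome 15, 76612383 to 76617384), the zinc importer ZIP4. It measured 6.57, 6.48, 11.1 and 6.94 TPM on high fat. It measured 18.4, 14.02, 18.1 and 13.02 TPM in the chow-alternating and 32.9, 19.2, 17.1 and 15.7 TPM in the ketogenic-alternating libraries. All 8 alternating values were above all 4 high-fat values, and chow alone was higher still at 34.4 to 71.97 TPM. The pooled log2 difference was 1.14 (SE 0.19, limma adjusted p = 0.235). The regimens taken singly gave 0.96 and 1.31, and differed from each other by 0.35 (95% interval -0.13 to 0.83). Without high-fat replicate 3 the pooled value was 1.30 and passed (adjusted p = 0.0201, against 0.0201 to 0.874 over all alternatives).

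The stress-inducible genes Gadd45b and Ppp1r15a were also above the high-fat range in all 8 alternating libraries, but not after median centring, where both overlapped it. Gadd45b (chromosome 10, 80930073 to 80932204), a growth-arrest and DNA-damage gene, measured 1.31, 2.72, 3.25 and 1.11 TPM on high fat. It measured 4.73, 7.64, 7.02 and 3.58 TPM in the chow-alternating and 7.62, 3.66, 3.69 and 7.28 TPM in the ketogenic-alternating libraries, none of which overlapped the high-fat values as deposited. Chow alone gave 5.44 to 16.3 TPM. The pooled log2 difference was 1.11 (SE 0.25, limma adjusted p = 0.553), with 1.14 and 1.08 for the single regimens. Ppp1r15a, whose product directs a phosphatase to the translation factor eIF2 alpha, measured 3.32 to 5.49 TPM on high fat, 6.28 to 9.49996 in the chow-alternating and 6.34 to 8.399 in the ketogenic-alternating libraries. Its pooled log2 difference was 0.58 (SE 0.15, adjusted p = 0.614). Id1, an inhibitor of helix-loop-helix transcription factors, had 5.65 to 9.81 TPM on high fat and overlapped it, at 8.54 to 16.95 and 10.3 to 20.2 TPM in the 2 regimens.

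The promoters of Gadd45b and Nubp2 are shown because both genes lay above the high-fat range in all 8 alternating libraries as deposited and both carry an E-box, the site read by clock and other helix-loop-helix factors. Each window runs from 250 bases before to 50 bases after the RefSeq start (GRCm38.p6), 5′ to 3′ on the strand of the gene, with CACGTG in capitals. Gadd45b lies on the plus strand at chr10:80929841-80930140 and this start of Nubp2, 1 of 3, on the minus strand at chr17:24885892-24886191.
Gadd45b: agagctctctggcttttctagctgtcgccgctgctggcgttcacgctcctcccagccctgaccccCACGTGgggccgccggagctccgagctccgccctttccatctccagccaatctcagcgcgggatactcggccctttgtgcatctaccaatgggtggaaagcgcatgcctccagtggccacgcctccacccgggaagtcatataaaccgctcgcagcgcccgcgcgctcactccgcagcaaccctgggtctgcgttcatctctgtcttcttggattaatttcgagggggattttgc
Nubp2: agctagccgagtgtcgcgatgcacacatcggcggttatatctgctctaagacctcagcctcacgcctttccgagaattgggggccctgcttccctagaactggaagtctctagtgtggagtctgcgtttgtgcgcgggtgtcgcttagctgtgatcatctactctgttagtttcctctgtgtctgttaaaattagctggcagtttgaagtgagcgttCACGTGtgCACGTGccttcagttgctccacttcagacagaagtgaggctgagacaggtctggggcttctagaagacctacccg

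The E-box letters were found in 7.15% of all 32851 promoters of that table and in 11.9% of the 8880 tested genes it holds. Of the 30 leading genes 27 had a promoter in the table, and 3 of these (11.1%) held the letters. Nubp2, which encodes a protein of cytosolic iron-sulfur cluster assembly, measured 15.5 to 22.995 TPM on high fat. It measured 24.97 to 27.1 TPM in the chow-alternating and 26.4 to 32.1 TPM in the ketogenic-alternating libraries (pooled log2 difference 0.52, SE 0.12, limma adjusted p = 0.553). Tmed1, of the p24 family of carriers between endoplasmic reticulum and Golgi, was at 6.799 to 13.3 TPM on high fat and at 14.8 to 16.9 and 13.8 to 19.9 TPM in the regimens. The clathrin light chain gene Cltb was at 30.4 to 36.5 TPM against 39.3 to 44.1 and 44.2 to 58.8 TPM. For these 3 genes all 8 alternating libraries were above the 4 high-fat ones as deposited, with differences under 2-fold, and after median centring only Nubp2 was still separated.

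Fewer of the 30 leading genes, 9, lay below high fat in both regimens. Over all tested genes the balance of separated genes depends on the scaling. It was 52 higher and 5 lower as deposited, and 12 higher and 35 lower after median centring. Wfdc2, which encodes a small secreted whey acidic protein, measured 14.7, 10.96, 19.6 and 11.6 TPM on high fat. It measured 9.898, 8.78, 5.05 and 5.69 TPM in the chow-alternating and 10.1, 5.21, 5.34 and 7.02 TPM in the ketogenic-alternating libraries, all lower. The pooled log2 difference was -0.91 (SE 0.21, limma adjusted p = 0.553). Fbxo36, an F-box protein gene, was likewise separated, with 11.3 to 15.2 TPM on high fat against 7.22 to 9.37 and 7.88 to 11.2 TPM. Among the leading genes, cytochrome P450 genes of the Cyp2c cluster on chromosome 19 had pooled log2 differences of -0.62 (Cyp2c67), -0.98 (Cyp2c40) and -1.18 (Cyp2c69). The cluster was not lower throughout, as Cyp2c29 had 0.62, made of 1.58 in the chow-alternating and -0.35 in the ketogenic-alternating group. These are close paralogs, and how their shared reads were divided is uncertain. Cyp2c40 measured 30.4, 45.1, 16.8 and 35.4 TPM on high fat, with replicate 3 the lowest, and 13.9 to 25.2 and 9.42 to 12.9 TPM in the regimens. Without that replicate its difference was -1.25 and passed (adjusted p = 0.0201, against 0.0201 to 0.9995 over all alternatives).

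Removing high-fat replicate 3 gave the longest list of calls among the single-library removals, with 10 genes. As it was picked for that, the adjusted p-values without it are no support for these genes. With alternation 4 were higher, namely Slc25a22 (a mitochondrial glutamate carrier), Enho (the secreted peptide adropin), Slco1a4 and Slc39a4. The other 6 were lower, namely Dct, Cyp2c40, Scd1, Cyp4a12a, Mup15 and Mup17. Mup17, a major urinary protein made by male liver, measured 5669.9, 5258, 486 and 4604 TPM on high fat, with replicate 3 the lowest of all 12 libraries. It measured 771 to 1178 TPM in the chow-alternating and 1085 to 3928 TPM in the ketogenic-alternating libraries. Its pooled log2 difference was -1.08 (adjusted p = 0.653) with all 12 libraries and -1.93 (0.0295) without replicate 3. Cyp4a12a, a male-biased fatty acid hydroxylase, measured 245, 233, 71.1 and 230.5 TPM on high fat and 95.8 to 119 and 76.4 to 131 TPM in the regimens. The pooled value of -0.75 (adjusted p = 0.614) became -1.18 (0.0136). Slco1a4, an uptake carrier for bile acids and drugs, measured 13.3, 13.5, 67.3 and 14.6 TPM on high fat and 40.2 to 62.5 and 22.9 to 46.2 TPM in the regimens. Its value of 0.94 (0.614) became 1.49 (0.0145). In all 3 genes the other high-fat libraries lay together on 1 side and replicate 3 on the other.

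**Figure D3:**
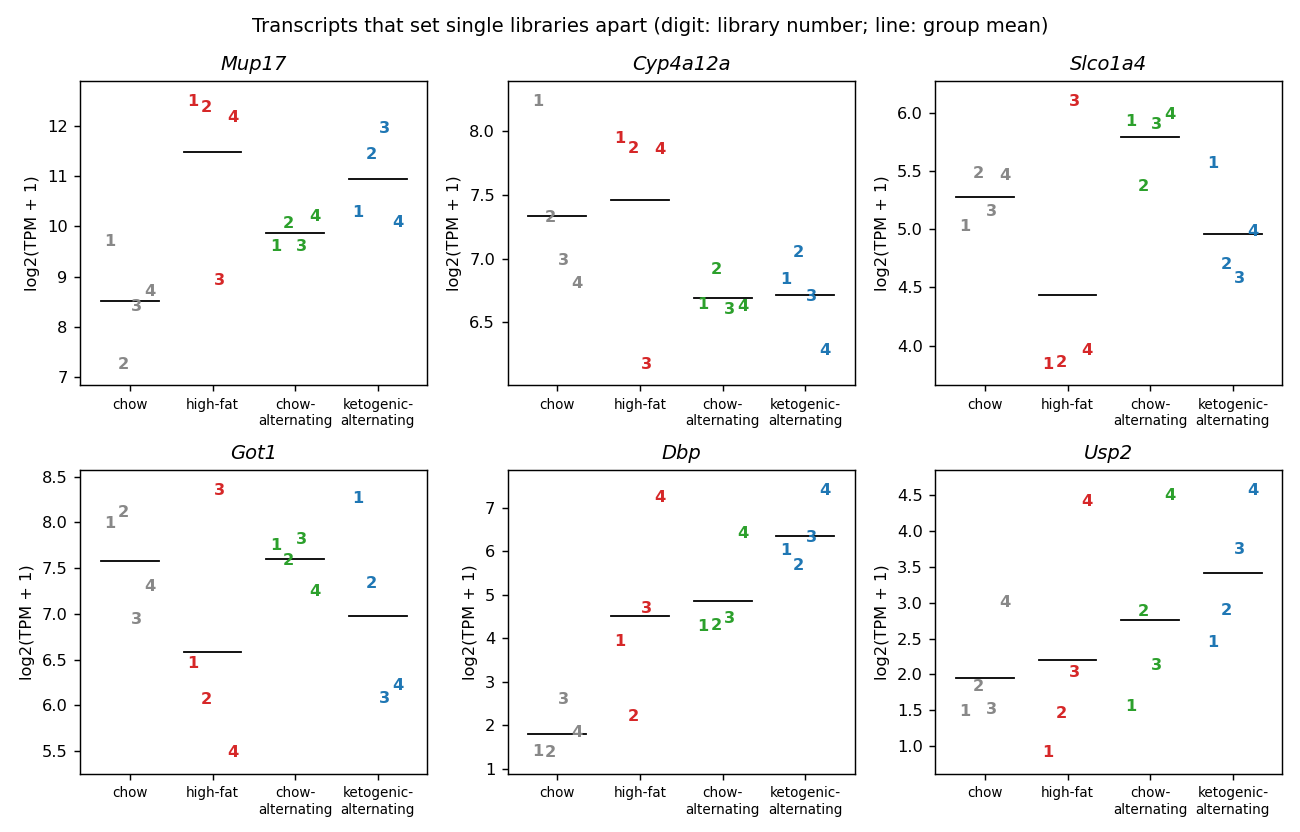
Levels of 6 transcripts in the 16 libraries on a log2(TPM + 1) axis, with the library number as the mark and a line at each group's mean. High-fat replicate 3 lies apart from the other high-fat libraries for Mup17, Cyp4a12a, Slco1a4 and Got1, and the libraries numbered 4 hold the highest Dbp and Usp2 of the high-fat and both alternating groups.

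The sex-biased liver genes as a list leaned below high fat in both regimens. The list was not split into male-biased and female-biased genes, so its median gives no direction of sex bias. Of 21 tested members 0 passed and 2 were above 0, against 75.5% of all genes, with 1 higher and 3 lower at an unadjusted p under 0.05 (6.73% and 0.976% of all genes). The list median was -0.38 in the pooled contrast, -0.34 for the chow-alternating and -0.38 for the ketogenic-alternating group, beside all-gene medians of 0.11, 0.02 and 0.21. High-fat replicate 3 was the lowest high-fat library for 18 of the 21. The median was -0.69 without it, beside 0.19 for all genes. Without high-fat replicates 1 and 2, the libraries over 33% in 20 genes, it was -0.12 beside -0.05, and with the share of the 20 highest genes as a covariate -0.09 beside -0.11, with 12 of the 21 above the all-gene median. The lean below other genes was therefore not seen with that covariate. Serpina3k, a serine protease inhibitor, had the smallest p of the list, with 6403 to 9943 TPM on high fat and 6171 to 6933 and 4927 to 5993 TPM in the regimens (log2 difference -0.45, adjusted p = 0.614). Mup7, the most abundant, had 2522 to 21734 TPM on high fat and a log2 difference of -0.06. As with the Cyp2c genes, how reads shared among Mup paralogs were divided is uncertain.

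Amino acid catabolism and the urea cycle leaned the other way. None of its 31 tested members passed, 28 were above 0 (75.5% of all genes were) and 9 were higher at an unadjusted p under 0.05 (6.73% of all genes). The median was 0.33, with 0.34 and 0.24 for the chow-alternating and ketogenic-alternating groups, beside all-gene medians of 0.11, 0.02 and 0.21. The ketogenic-alternating value was thus near that of all genes. Mat1a, which makes S-adenosylmethionine, measured 882, 1014, 2619 and 1214 TPM on high fat, 1618 to 2278 TPM in the chow-alternating and 1812 to 2384 TPM in the ketogenic-alternating libraries. High-fat replicate 3 again differed from its group. It was the highest high-fat library for 28 of the 31 genes and for all 10 tested periportal hepatocyte markers, of which amino acid enzymes are part. Got1, a transaminase, measured 86.8, 65.8, 324 and 43.7 TPM on high fat. The list median was 0.60 without that library and 0.03 without high-fat replicates 1 and 2, beside all-gene medians of 0.19 and -0.05, and 0.01 beside -0.11 with the covariate.

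Drug-metabolising P450 enzymes and their receptors had a pooled median of 0.37, with 19 of 20 members above 0 (75.5% of all genes were) and 9 higher and 1 lower at an unadjusted p under 0.05 (6.73% and 0.976% of all genes). None passed. Without high-fat replicate 3 the median was 0.35, beside 0.19 for all genes. There 13 of the 20 were above the all-gene median, against 17 with all 12 libraries. The chow-alternating group gave 0.38 and the ketogenic-alternating group 0.06, beside 0.02 and 0.21 for all genes. In the ketogenic-alternating group 11 of 20 members were above 0, so the lean was not seen in both regimens. Por, the electron donor of all these enzymes, was alike in the regimens, with 143, 125, 309 and 230.2 TPM on high fat, 239 to 406 and 282 to 377 TPM with alternation and a log2 difference of 0.68 (adjusted p = 0.614). The NRF2 and glutathione list had 17 of 20 members above 0, near the 75.5% of all genes, a median of 0.34, and 0.19 and 0.46 in the single regimens, with 7 higher at an unadjusted p under 0.05 (6.73% of all genes) and 0 passing. Its member Nqo1, a quinone reductase, measured 4.23 to 10.4 TPM on high fat and 7.7002 to 8.65 and 8.55 to 13.3 TPM in the regimens. Gsta1, a glutathione transferase, measured 0.857, 0.298, 4.73 and 0.126 TPM on high fat, 2.78 to 4.92 and 0.872 to 20.2 TPM in the regimens, with a log2 difference of 1.29 (adjusted p = 0.614). After median centring the medians of these 2 lists were 0.24 and 0.22, and that of the amino acid list 0.21.

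The remaining pathway lists, apart from clock and fat synthesis genes given further on, had 0 members passing and pooled medians from -0.14 (antigen presentation, 11 tested) to 0.27 (gluconeogenesis and fasting, 18 tested). Pck1, the rate-setting enzyme of gluconeogenesis, measured 322, 569.6, 1585 and 876 TPM on high fat, 534 to 1752 TPM in the chow-alternating and 1145 to 1540.1 TPM in the ketogenic-alternating libraries, with high-fat replicate 3 above every library of the ketogenic-alternating group. Its log2 difference was 0.84 (95% interval 0.05 to 1.62, limma adjusted p = 0.619). The cholesterol synthesis list gave 0.14 in the pooled contrast from -0.26 in the chow-alternating and 0.45 in the ketogenic-alternating group. The metal and selenium list, which holds Slc39a4, had a median of 0.16, and the immediate early list, which holds Gadd45b, 0.09.

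**Figure D4:**
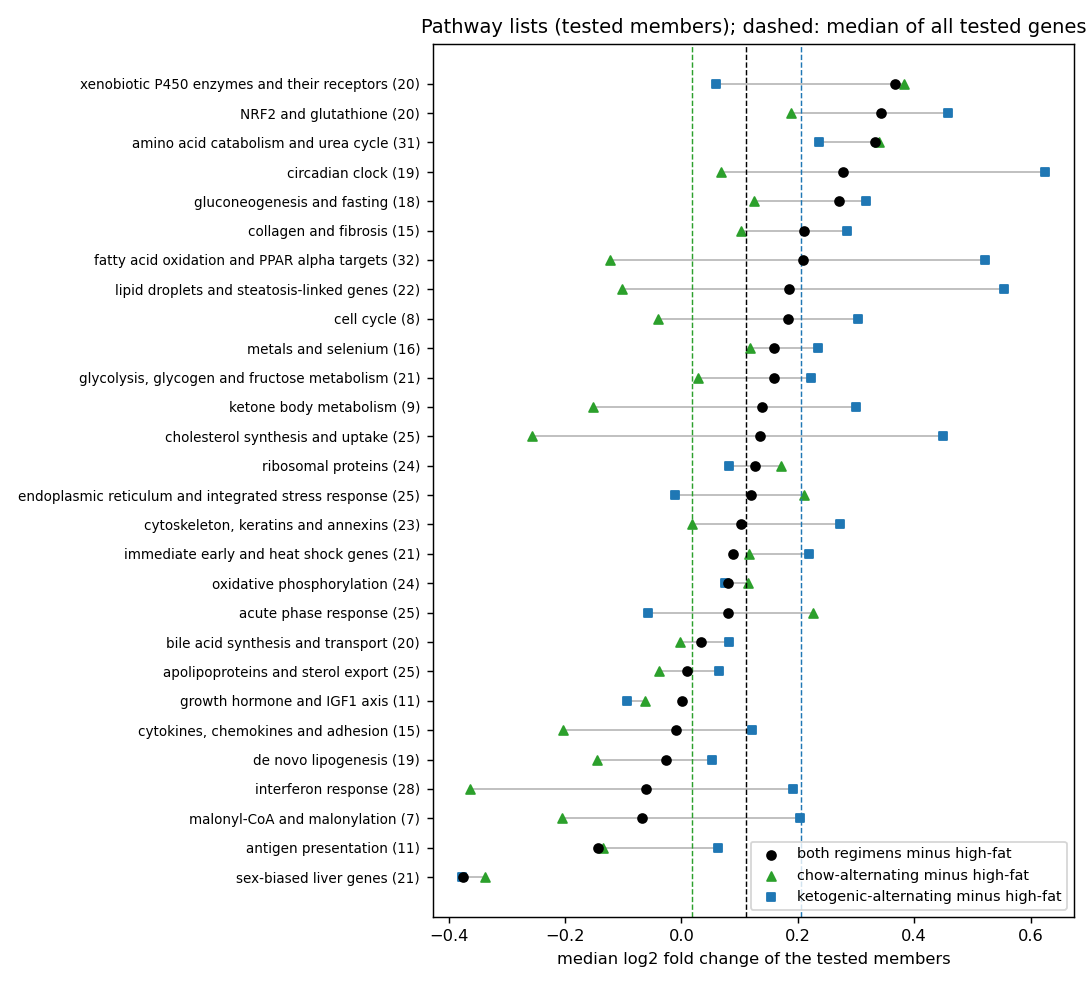
Median log2 fold change of the tested members of 28 pathway lists, with the number tested in brackets. Black circles are both regimens minus high fat, triangles the chow-alternating and squares the ketogenic-alternating group minus high fat, and dashed lines the medians of all tested genes. Sex-biased genes lie below and amino acid genes above the all-gene median in all 3, the latter only narrowly in the ketogenic-alternating group. Fatty acid oxidation, lipid droplet, cholesterol and interferon lists separate the regimens.

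Clock genes varied widely within groups. In the pooled contrast none of 19 tested members passed, 14 were above 0 (75.5% of all genes were), and the median was 0.28, with 0.07 and 0.63 for the chow-alternating and ketogenic-alternating groups. At an unadjusted p under 0.05 there were 1 higher and 1 lower (6.73% and 0.976% of all genes). Between the regimens 1 member passed, the clock repressor gene Cry1, which was lower in the ketogenic-alternating group (0.293% of all genes were). It measured 2.69 to 4.13 TPM on high fat, 3.22 to 4.62 TPM in the chow-alternating and 1.26 to 1.95 TPM in the ketogenic-alternating libraries (difference -0.87, limma adjusted p = 0.018). Dbp, an output gene of the clock, measured 14.2, 3.61, 24.5 and 149 TPM on high fat, 18.1, 18.6, 20.8 and 83.4 TPM in the chow-alternating and 63.6, 50.3, 78.8 and 167 TPM in the ketogenic-alternating libraries, in the order of the library numbers. The library numbered 4 was the highest of its group in all 3 groups for 8 of the 19 genes (Per2, Per3, Dbp, Tef, Ciart, Bhlhe40, Bhlhe41 and Usp2) and the lowest in all 3 for 2 (Arntl and Nfil3). The labels give no time of collection and do not say what the numbers stand for. The pooled difference of Dbp was 1.09 (SE 0.69, limma adjusted p = 0.672).

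The genes of malonyl-CoA and fat synthesis other than Scd1 did not pass in the pooled contrast. Malonyl-CoA, the first product of fatty acid synthesis, is made by Acaca and Acacb and removed by Mlycd, and Sirt5 strips malonyl groups from proteins. The pooled log2 differences were -0.09 for Acaca, -0.08 for Acacb, 0.30 for Mlycd and -0.07 for Sirt5 (limma adjusted p 0.891, 0.902, 0.614 and 0.876). Fasn, the fatty acid synthase, measured 32.2, 46.1, 40.8 and 57.8 TPM on high fat, 22.3 to 53.3 TPM in the chow-alternating and 18.7, 50.3, 46.5 and 45.2 TPM in the ketogenic-alternating libraries, overlapping throughout. Its difference was -0.24 (95% interval -0.81 to 0.33). Srebf1, which encodes SREBP1, had -0.21 (-0.72 to 0.29). Cpt1a, the gate of mitochondrial fatty acid oxidation, had 0.37 (-0.10 to 0.85). Of 19 tested members of the de novo lipogenesis list 1 fell, Scd1, against 0.00887% of all genes. Scd1 was low in the ketogenic-alternating group only. The list median was -0.03, beside 0.11 for all genes. Ketogenic-alternating minus chow-alternating, the differences were 0.28 for Acaca, -0.50 for Acacb, 0.06 for Mlycd and 0.54 for Sirt5. They were 0.08 for Fasn, 0.53 for Srebf1 and 0.98 for Cpt1a. A small pooled value can therefore average unlike regimens.

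The regimens differed from each other far more than they differed together from high fat. In the same 12-library fit 65 genes (0.577%) were called between the ketogenic-alternating and chow-alternating groups, 51 higher (0.452%) and 14 lower (0.124%) in the ketogenic one. With no fold limit 143 passed (1.27%), 110 higher (0.976%) and 33 lower (0.293%). The split depends on the scaling, at 27 higher and 30 lower after median centring and 28 higher and 22 lower after quantile normalisation. The number also fell to 29 without chow-alternating replicate 2, to 43 without replicate 3 or 4 of that group and to 32 without ketogenic-alternating replicate 2. For 64 of the 65 genes the high-fat mean lay between the means of the regimens, and for 1, Apoa4, above both. Choosing genes by a wide gap between the regimens makes such a position likely, and its share over all genes was not counted. Against high fat alone 3 genes were called in the chow-alternating group (0.0266%) and 10 in the ketogenic-alternating group (0.0887%). Both comparisons use the same high-fat libraries, so only their values are set side by side.

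Lipid storage genes were among those on opposite sides of high fat. Cidec, which fuses lipid droplets, measured 3.64, 4.42, 12.9 and 6.35 TPM on high fat, 1.7997, 1.91, 2.31 and 3.26 TPM in the chow-alternating and 70.9, 35.9, 21.3 and 26.2 TPM in the ketogenic-alternating libraries. The difference between the regimens was 3.44 (SE 0.36, limma adjusted p = 0.000222), and the regimens lay -1.12 and 2.32 from high fat. All 4 ketogenic-alternating values were above every other value in the 12 libraries. Cfd, the complement protease adipsin of fat cells, measured 1.88, 0.723, 0.848 and 3.34 TPM on high fat, 1.33, 0, 0.173 and 0.231 TPM and 12.8, 16.1, 42.03 and 27.5 TPM in the same order, a difference of 4.10 (SE 0.38, adjusted p = 6.57e-05). Of 22 tested lipid droplet genes 4 were higher in the ketogenic-alternating group (0.976% of all genes were), namely Cfd, Cidec, Cd36 and Osbpl3, and 0 were lower. The fatty acid carrier Cd36 gave 1.89, the oxysterol-binding protein gene Osbpl3 2.22 and the fat cell regulator Pparg 1.26 (adjusted p 0.00392, 0.0106 and 0.0105).

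Fatty acid oxidation and the fasting hormone Fgf21 separated the regimens too. Of 32 tested oxidation and PPAR alpha genes 9 were higher and 0 lower in the ketogenic-alternating group (0.976% and 0.293% of all genes were), and the list medians were -0.12 and 0.52 from high fat. Aldh3a2, a fatty aldehyde dehydrogenase, measured 135 to 281 TPM on high fat, 129 to 191 and 419 to 495 TPM in the chow-alternating and ketogenic-alternating groups, a difference of 1.48 (adjusted p = 0.00144). Fgf21 measured 8.12, 20.4, 14.8 and 6.996 TPM on high fat. It measured 3.401, 2.58, 4.89 and 2.85 TPM in the chow-alternating and 68.1, 37.8, 9.65 and 34.9 TPM in the ketogenic-alternating libraries, which overlapped high fat in replicate 3 alone. The difference was 2.87 (SE 0.45, adjusted p = 0.00738). Bdh1, which makes the ketone body beta-hydroxybutyrate, gave 1.22 (adjusted p = 0.000707). Fabp2, a fatty acid binding protein best known from the gut, measured 181, 151, 174 and 171 TPM on high fat, 101, 80.3, 91.1 and 84.9 and 269.9, 261, 205 and 320.1 TPM in the regimens, with no overlap among the 3 groups (difference 1.54, adjusted p = 4.97e-05).

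Other genes met the same rule, which asked for a call between the regimens with each at least 0.5 from high fat on opposite sides. It held for 19 genes with established symbols. Slc35f2, a solute carrier, gave 1.72, the keratin gene Krt23 2.80 and the laminin chain gene Lamb3 1.80 (adjusted p 8.06e-05, 0.00041 and 0.00259). Fam198a and Manf were lower in the ketogenic-alternating group. Fam198a gave -1.63 and Manf, a secreted chaperone of the endoplasmic reticulum, -1.23 (adjusted p 0.00957 and 0.0275). Manf measured 36.5 to 68.5 TPM on high fat, 52.9 to 115 TPM in the chow-alternating and 23.9 to 44.1 TPM in the ketogenic-alternating libraries. With Creld2 (-1.18) and Hspa5 (-0.92), both also of the endoplasmic reticulum, it made up the 3 of 25 tested stress response genes that passed, all lower in the ketogenic-alternating group, against 0.293% of all genes. Their pooled differences from high fat were 0.00, 0.53 and 0.20, none of which passed.

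Of the 20 tested P450 genes 2 were higher in the chow-alternating group than on high fat, Cyp2b10 and Cyp2c29, and 0 were lower. Both also met the fold limit, as did 3 of all tested genes (0.0266%) in that comparison. Cyp2b10, the target gene of the receptor CAR, measured 0.454, 1.39, 0.4797 and 0.411 TPM on high fat and 0.0396, 0.224, 0.635 and 0.308 TPM in the ketogenic-alternating libraries. It measured 6.18, 12.3, 8.33 and 7.71 TPM in the chow-alternating libraries, all above both other groups, and 8.39 to 21.98 TPM on chow alone. Its pooled difference of 1.08 (adjusted p = 0.247) was made of 2.51 and -0.35, and the regimens differed by -2.87 (adjusted p = 2e-05). Cyp2c29 had 401 to 548 TPM on high fat, 1090.1 to 1789.8 and 240.2 to 559 TPM in the regimens (difference -1.93, adjusted p = 0.000619). Between the regimens 3 of the 20 were lower in the ketogenic-alternating group (0.293% of all genes were), these and Cyp3a25 (-0.67), and 1 was higher (0.976% of all genes were), Cyp2b9 (2.74). Cyp2b9, a female-biased P450, measured 0.663, 2.17, 1.48 and 0.971 TPM on high fat, 1.01, 0.394, 1.25 and 0.603 TPM in the chow-alternating and 1.798, 11.98, 14.5 and 35.2 TPM in the ketogenic-alternating libraries. Apoa4, an apolipoprotein of triglyceride-rich particles, measured 3691, 3490.0, 4964 and 2887 TPM on high fat, 822, 748, 388 and 467 TPM in the chow-alternating and 7053, 2448, 1505 and 2114 TPM in the ketogenic-alternating libraries. It lay -2.67 from high fat in the first regimen (adjusted p = 0.0223) and -0.44 in the second (0.511). Its pooled value was -1.55 (0.553) and, without ketogenic-alternating replicate 1, -1.78 and past the threshold (0.0091).

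Some interferon response genes separated the regimens. Of 28 tested, 6 were higher and 0 lower in the ketogenic-alternating than in the chow-alternating group (0.976% and 0.293% of all genes were). The list median of the difference was 0.68 beside 0.19 for all genes, from -0.36 in the chow-alternating and 0.19 in the ketogenic-alternating group against high fat. The promoter of Isg15, a ubiquitin-like interferon product, is shown because it carries the letters of an interferon response element at 3 overlapping places. It lies on the minus strand at chr4:156200769-156201068 (RefSeq, GRCm38.p6), with those letters in capitals.
Isg15: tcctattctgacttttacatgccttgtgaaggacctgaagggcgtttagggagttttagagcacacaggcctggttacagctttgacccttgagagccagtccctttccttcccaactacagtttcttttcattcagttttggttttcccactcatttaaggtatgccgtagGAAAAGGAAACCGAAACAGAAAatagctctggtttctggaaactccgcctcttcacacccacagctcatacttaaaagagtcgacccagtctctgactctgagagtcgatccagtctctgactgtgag

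Isg15 measured 22.03, 15.2, 20.5 and 29.9 TPM on high fat, 17.2, 10.6, 13.2 and 15.5 TPM in the chow-alternating and 39.2, 37.1, 25.02 and 34.9 TPM in the ketogenic-alternating libraries, a difference between regimens of 1.21 (SE 0.20, limma adjusted p = 0.0109). Its pooled difference from high fat was 0.03 (95% interval -0.35 to 0.41). The element was found in 4 of the 48 genes called between the regimens that the table holds (8.33%), in 3.44% of all promoters and in 3.87% of the tested genes. For the antioxidant core TGACNNNGC the shares were 10.4%, 12.4% and 16.9%, and for the sterol element TCACNCCAC 4.17%, 1.24% and 1.5%. The D-box and the direct repeats of AGGTCA with 1 or 4 bases between them were in 0 of the 48 promoters. Both strands were searched, and matches may overlap each other.

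The 5 genes whose levels followed Scd1 most closely over the 12 libraries were Cyp2c70, Hamp2, Cry1, Cyp2d22 and Cyp2f2, with Pearson r on log2(TPM + 1) of 0.968, 0.947, 0.942, 0.929 and 0.900. These are descriptions over libraries that form 3 diet groups. Cyp2c70, which makes the muricholic bile acids of mice, measured 180.3 to 297 TPM on high fat, 257 to 333 TPM in the chow-alternating and 47.3 to 79.7 TPM in the ketogenic-alternating libraries (difference between regimens -2.16, adjusted p = 2e-05). Hamp2, a hepcidin gene, gave -3.35, Cry1 -0.87 and Cyp2d22 -0.56 (adjusted p 0.000925, 0.018 and 0.0116). Cyp2f2 gave -0.48 and did not pass (adjusted p = 0.0762). The 5 genes' chow-alternating differences from high fat ran from -0.05 (Cyp2f2) to 0.47 (Hamp2).

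Markers of other cells were read for the same libraries. Hepatocyte markers were abundant throughout and summed to 87197 to 128181 TPM on high fat, 109563 to 119342 TPM in the chow-alternating and 91401 to 96346 TPM in the ketogenic-alternating group. In the pooled contrast 0 of the tested members of all 15 marker lists passed. Between the regimens 3 did, where 1.27% of all genes passed. They were Oit3 of the sinusoidal endothelial list (1 of 11 tested), Cfd of the fat cell list (1 of 2) and Fabp2 of the gut list (1 of 2). The list medians of the difference between the regimens were 0.52 for sinusoidal endothelial cells (11 of 11 above 0), 0.42 for stellate cells, 0.74 for Kupffer cells, -0.27 for hepatocytes and -0.86 for red blood cells, beside 0.19 for all genes. Kupffer cell markers summed to 347 to 558, 317 to 378 and 255 to 778 TPM in the same order of groups, and their list median was -0.38 in the chow-alternating and 0.34 in the ketogenic-alternating group, moving as the interferon list did. The part of these cells in the differences between the regimens was not tested, and in bulk liver fewer cells of a type and less RNA per cell cannot be told apart. Fat cell markers summed to 11.2 to 24.5, 6.14 to 11.7 and 28.02 to 50.9 TPM, a sum that includes Cfd. The other tested fat cell marker, Fabp4, differed by 0.62 between the regimens (adjusted p = 0.363) and by -0.03 between the ketogenic-alternating group and high fat, and Lep was at 0 in all 12 libraries. For the exocrine pancreas Prss2, Pnlip and Amy2a5, and for the gut epithelium Fabp6, Lct and Sis, were at 0 in all 12.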

How the data were processed

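Liver RNA was sequenced in 16 libraries and 12 were compared. Per the labels and the submitters' processing notes, the authors aligned reads to mm10 with HISAT2, quantified Ensembl genes with RSEM 1.1.17 and used edgeR 3.14.0. The design text names FPKM, but the deposited gene values are TPM, as every column has the same sum. TPM keep no depth, so no count test was run, no counting error is given, and, being shares, the values of all genes depend on the few most abundant.

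Genes with at least 1 TPM in 4 or more of the 12 libraries (11271) were fitted as log2(TPM + 1) in limma 3.58.1 (R 4.3.3) with an intensity trend and 3 group means. The mean of both alternating groups was set against high fat, and the regimens against each other. P-values were adjusted by Benjamini-Hochberg over all 11271 genes. Calls needed a fold of at least 2 beside an adjusted p under 0.05, and list members the adjusted p alone. Fold changes on log2(TPM + 1) understate the change of low genes. The fit was tested on simulated data. Coordinates are from GENCODE vM21 (22505 of 22612 identifiers found) and promoters from RefSeq GRCm38.p6.

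The comparison and the lists were chosen with earlier results of these data known. Named genes were those called, the list members passing or else the most abundant member of a list, up to 6 each way of the genes on opposite sides of high fat, 8 genes of malonyl-CoA and fat metabolism, and the 5 most like Scd1. The 30 leading genes and the other genes with values were chosen after their values were seen. Alternatives covered pseudocount, filter, scaling, variance model, covariate, block and left-out libraries or groups.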

Additional observations from a re-analysis of the deposited data

Results flagged for a closer look

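Single libraries stood far from the other 3 of their group for several of the genes described. Chance meets the criterion in about 1 of 20 groups if values are normally distributed, which was not tested for these TPM. Apart from Scd1 and Fasn these genes were chosen after their values were seen, so that rate does not hold for them. The ratio given is the gap to the nearest library over the range of the group, both in TPM. On the log2(TPM + 1) scale of the tests it can differ.

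In the high-fat group replicate 3 held 11.1 TPM of Slc39a4 against 6.48 to 6.94 TPM in the rest (ratio 0.900). Cyp2b10 was at 1.39 TPM in replicate 2 and at 0.411 to 0.480 TPM elsewhere (ratio 0.930). Cyp4a12a was at 71.1 TPM in replicate 3 and at 230.5 to 245 TPM elsewhere (ratio 0.916). Slco1a4 was at 67.3 TPM in replicate 3 and at 13.3 to 14.6 TPM elsewhere (ratio 0.977). Got1 was at 324 TPM in replicate 3 and at 43.7 to 86.8 TPM elsewhere (ratio 0.846). Gsta1 was at 4.73 TPM in replicate 3 and at 0.126 to 0.857 TPM elsewhere (ratio 0.841). Dbp was at 149 TPM in replicate 4 and at 3.61 to 24.5 TPM elsewhere (ratio 0.857). Usp2 was at 20.3 TPM in replicate 4 and at 0.876 to 3.09 TPM elsewhere (ratio 0.886). Per2 was at 8.53 TPM in replicate 4 and at 1.90 to 2.84 TPM elsewhere (ratio 0.858).

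In the chow-alternating group replicate 1 held 1583 TPM of Scd1 against 814 to 916 TPM in the rest (ratio 0.867). Cyp4a12a was at 119 TPM in replicate 2 and at 95.8 to 98.7 TPM elsewhere (ratio 0.877). Dbp was at 83.4 TPM in replicate 4 and at 18.1 to 20.8 TPM elsewhere (ratio 0.960).

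In the ketogenic-alternating group replicate 1 held 66.7 TPM of Scd1 against 11.0 to 19.7 TPM in the rest (ratio 0.844). Fasn was at 18.7 TPM in replicate 1 and at 45.2 to 50.3 TPM elsewhere (ratio 0.839). Apoa4 was at 7053 TPM in replicate 1 and at 1505 to 2448 TPM elsewhere (ratio 0.830). Cltb was at 58.8 TPM in replicate 4 and at 44.2 to 46.1 TPM elsewhere (ratio 0.867). Gsta1 was at 20.2 TPM in replicate 1 and at 0.872 to 3.49 TPM elsewhere (ratio 0.865).

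The regimens differed by limma's test of that difference at an adjusted p under 0.05 for the genes that follow, with values as ketogenic-alternating minus chow-alternating on log2(TPM + 1). Higher in the ketogenic-alternating group were Fabp2 1.54, Cfd 4.10, Slc35f2 1.72, Cidec 3.44, Krt23 2.80, Lamb3 1.80, Apoa4 2.23, Tram2 0.65, Fgf21 2.87, Cd36 1.89, Pparg 1.26, Bdh1 1.22, Isg15 1.21, Osbpl3 2.22, Aldh3a2 1.48 and Cyp2b9 2.74. Lower in it were Scd1 -5.44, Fam198a -1.63, Manf -1.23, Cyp2c70 -2.16, Hamp2 -3.35, Cry1 -0.87, Cyp2d22 -0.56, Cyp2b10 -2.87, Cyp2c29 -1.93, Creld2 -1.18, Hspa5 -0.92 and Cyp3a25 -0.67.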

How the results depend on the processing

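Scd1 was the only gene called in the pooled contrast and its call depends on the settings. No gene was called, in either direction or with no fold limit (0 genes), with a pseudocount of 0.1, with no filter on low values, with the 8 alternating libraries as 1 group, with no intensity trend, with robust variance moderation, with the share of the 20 highest genes as a covariate, or without the libraries over 33% in 20 genes (high-fat replicates 1 and 2). The adjusted p of Scd1 over all 27 alternatives ran from 3.52e-05 to 0.9995, and its only change of direction was without the ketogenic-alternating group, where it was 0.20. Without the chow-alternating group 4 genes were called (1 higher, 3 lower, 4 with no fold limit), and without the ketogenic-alternating group 4 (3 higher, 1 lower, 5 with no fold limit). Leaving out each library in turn gave 0 to 10 calls, 0 to 4 higher and 0 to 6 lower, and 0 to 17 with no fold limit, the highest without high-fat replicate 3.

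Between the regimens the 65 calls became 29 with a pseudocount of 5 (20 higher, 9 lower), 35 with no filter (26 higher, 9 lower, 83 with no fold limit) and 22 with the covariate (12 higher, 30 with no fold limit). Requiring 1 TPM in all 12 libraries left 8 lower. Median centring gave 27 higher and 30 lower and quantile normalisation 28 higher and 22 lower, and 40 and 41 of these were among the 65. Without the libraries over 33% in 20 genes 514 genes passed with no fold limit, against 143. Leaving out each library in turn gave 29 to 87 calls, 20 to 75 higher and 9 to 18 lower, and 37 to 237 with no fold limit. The cause of these shifts was not tested.

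Of 3199 values of named genes in the pooled contrast 3165 kept their direction or, where not called, their side of the threshold, and uncalled values changed sign 178 times. List medians changed sign in 141 of 1160 values. The replicate number as a block left 1 gene called, Scd1 (adjusted p = 0.0253). Same-numbered libraries did not deviate together as a rule: 2 of 12 pairs correlated above 0.1 (range -0.17 to 0.39), so the numbers were not taken as pairs. With that block 6 of 19 clock genes were higher and 1 lower at an unadjusted p under 0.05 (5.58% and 1.04% of all genes), 0 passed, and Dbp gave an adjusted p of 0.739. Depth is unknown for TPM, and 4 libraries a group set the precision.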
